A study of Mus musculus with 6 samples.

Results

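The integrin and laminin subunit genes were followed in hearts of mouse embryos at E18.5, shortly before birth. They were chosen by symbol alone, as genes named Itga, Itgb, Lama, Lamb or Lamc with a number or letter, which gave 37 of the 24421 genes in the table: 26 integrin and 11 laminin genes. C57/Bl6 embryonic hearts of 2 groups were compared, wildtype and Gas2l3 -/-, with 3 libraries in each. Gas2l3 encodes a protein that binds actin filaments and microtubules, and the labels do not say which exons the mutant lacks or in which cells.

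Integrins are receptors made of an alpha and a beta subunit that span the cell membrane and tie the extracellular matrix to the actin cytoskeleton through talin and kindlin. Laminins are trimers of an alpha, a beta and a gamma chain and form the sheet of basement membrane that surrounds each heart muscle cell and lies under the endothelium of vessels. Itgb1 is the beta subunit that pairs with most alpha subunits, so the alpha subunit largely sets which matrix protein is bound. In the heart, integrins and laminins anchor the muscle cells at costameres, where the sarcomeres are fastened to the membrane.

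The deposited values are FPKM, which are read counts per gene divided by transcript length and scaled between libraries, so levels of different genes can be compared. Reads assigned to genes ranged from 3414257 to 7732674 per library. Gas2l3 itself measured 10.3, 4.12 and 2.48 FPKM in the 3 libraries labelled wildtype and 4.03, 2.99 and 3.06 FPKM in the 3 labelled knockout. These groups overlapped, so the genotype labels could not be checked from this gene, and the groups below are named by their labels. Wildtype library 3 stood apart, with a mean correlation of 0.899 with the other libraries where those had 0.935 to 0.957, and its deviations followed transcript GC content across all genes (r = 0.70 across genes, which are not independent replicates). Tnnt2, a defining gene of heart muscle cells, measured 5404 to 8380 FPKM. The 8 skeletal muscle markers were low but not absent, with sums of 1.89 to 6.80 FPKM in wildtype and 1.29 to 2.99 FPKM in knockout libraries. Of these, Myod1, Myf5 and Pax7 were listed at 0, while Tnnt3 gave 1.45, 4.04 and 2.37 FPKM in wildtype and 0.420, 0.839 and 1.44 FPKM in knockout libraries. The labels do not state that the hearts came from separate embryos, so a p-value here weighs a difference only against the spread among these samples, which may be technical.

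The start regions of 4 genes are shown because their genes carry the results: Itgav has the clearest difference between the groups, Itgb1 is the most abundant subunit, and Lamb1 and Lamb2 are the pair of laminin beta chains that varied together across libraries. Each run holds 300 bases, 250 before to 50 after the start, 5′ to 3′ on the plus strand, taken from RefSeq promoters of build GRCm38.p6. Capitals mark GC boxes (GGGCGG, or its reverse complement CCGCCC) and the CCAAT box, the letters CCAAT on either strand.
Itgav, chr2:83724147-83724446: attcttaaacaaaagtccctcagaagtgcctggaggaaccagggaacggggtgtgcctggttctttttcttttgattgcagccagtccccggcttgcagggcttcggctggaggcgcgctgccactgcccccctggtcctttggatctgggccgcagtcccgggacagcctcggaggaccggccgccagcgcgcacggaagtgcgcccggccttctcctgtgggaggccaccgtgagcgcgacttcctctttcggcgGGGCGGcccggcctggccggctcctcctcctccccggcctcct
Itgb1, chr8:128685404-128685703: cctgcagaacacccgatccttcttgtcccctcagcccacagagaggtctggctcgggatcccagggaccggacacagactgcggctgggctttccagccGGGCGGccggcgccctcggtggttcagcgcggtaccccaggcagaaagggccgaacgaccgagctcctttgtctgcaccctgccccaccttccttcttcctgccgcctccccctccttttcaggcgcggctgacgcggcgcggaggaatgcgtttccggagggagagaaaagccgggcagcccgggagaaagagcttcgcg
Lamb1, chr12:31265043-31265342: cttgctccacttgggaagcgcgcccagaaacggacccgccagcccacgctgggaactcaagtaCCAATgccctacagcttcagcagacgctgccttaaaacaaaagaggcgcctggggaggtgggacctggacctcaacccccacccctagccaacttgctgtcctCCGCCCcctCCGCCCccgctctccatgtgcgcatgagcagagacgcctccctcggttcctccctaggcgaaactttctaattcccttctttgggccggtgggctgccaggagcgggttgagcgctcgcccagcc
Lamb2, chr9:108479612-108479911: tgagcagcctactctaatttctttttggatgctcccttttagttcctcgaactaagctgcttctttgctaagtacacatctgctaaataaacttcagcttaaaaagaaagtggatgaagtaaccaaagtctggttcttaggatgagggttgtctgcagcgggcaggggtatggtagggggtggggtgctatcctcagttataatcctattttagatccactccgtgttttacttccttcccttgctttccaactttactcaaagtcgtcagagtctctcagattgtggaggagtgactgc

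The Itgav and Itgb1 windows each held 67.3% G and C, with 24 and 27 CpG pairs and 1 GC box each. The Lamb1 window held 63.7% G and C, 18 CpG pairs, 2 GC boxes and 1 CCAAT box. The Lamb2 window was the exception at 44.0% G and C with 4 CpG pairs and no match to any motif searched. Over all 32817 distinct promoters in the table the median was 52.7% G and C and 7 CpG pairs. A GC box was found in 35.6% of all promoters, a CCAAT box in 37.4%, a TATA box (TATAAA) in 13.6% and an AP-1 site (TGACTCA) in 5.20%, each searched on both strands. Promoters were found for 23 of the 37 members. Among the 15 of these that were expressed, counting every promoter listed for a gene, 9 held a GC box, 2 a CCAAT box (Lamb1 and the second promoter of Itga3), 0 a TATA box and 1 an AP-1 site. These are counts of genes, where the shares above are of single promoters, so the 2 cannot be compared directly.

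At E18.5, 22 of the 37 subunit genes were expressed at 1 FPKM or above in 3 or more libraries and entered the test, 14 integrins and 8 laminins. This filter keeps a gene that is high in only 1 group, so the counts below cover the members that passed and not all 37. The plot of levels shows the order. Itgb1 stood highest with a mean of 213 FPKM over the 6 libraries, and its lowest library, at 117 FPKM, lay above the highest library of every other member. Next by mean came Lamb1, Lamc1, Itga5, Lama4, Itgb5 and Lamb2, between 35.2 and 58.6 FPKM, whose ranges over libraries overlapped one another. Itga6, Itga1, Itga9, Itgav, Itga7, Lama5, Lama2, Itga3 and Lamb3 followed, among others, with means between 4.27 and 19.8 FPKM. Itga8, Itgb3, Itga2b, Itga2 and Itgal closed the expressed set with means between 0.964 and 2.78 FPKM.

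**Figure D1:**
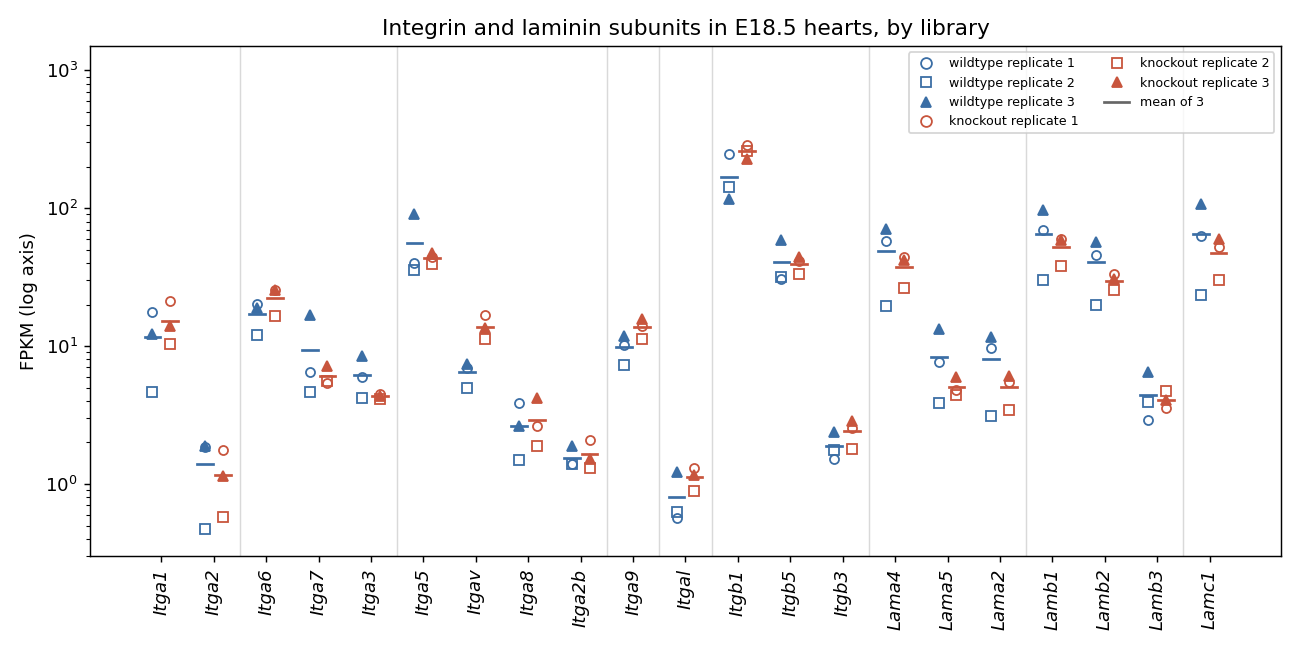
FPKM of 21 of the 22 expressed integrin and laminin genes (log axis) in each of the 3 libraries labelled wildtype and the 3 labelled knockout, with the mean of 3 as a line; genes stand in classes of subunits, by mean within a class. Itgb1 lies above every other member in all 6 libraries, and the points of the groups overlap for each gene except Itgav.

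The other 15 members stayed at or under 1.49 FPKM in every library, on 0 to 50 reads, and were not tested. They comprise subunits best known from blood cells, epithelia and the nervous system, Itgb2, Itgb4, Itgb6, Itgb7, Itgb8, Itga4, Itgam, Itgax, Itgad and Itgae, the collagen receptors Itga10 and Itga11, and the laminin chains Lama1, Lama3 and Lamc3. The highest of them by mean was Itgb2, the beta subunit of leukocyte integrins, at 0.893 FPKM. Lymphocyte markers were low as well: the 8 genes summed to 0.377 to 1.91 FPKM in wildtype and 1.28 to 2.10 FPKM in knockout libraries, with Cd3e and Cd3g at 0 throughout. The 8 macrophage markers were not, with sums of 54.8 to 113 FPKM in wildtype and 84.5 to 134 FPKM in knockout libraries.

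No subunit gene was called between the groups. At an adjusted p under 0.05 in limma, 0 of the 22 tested members passed, as did 0 of all 12121 tested genes (0%). At an unadjusted p under 0.05, 1 member passed, against 3.25% of all genes in either direction and 1.9% in the higher direction. Wildtype and knockout libraries did not overlap for 1 member that was higher in knockout, where 5.02% of all genes did so, and for 0 members that were lower, where 4.74% did. Both counts rest on Itgav alone and lie near these shares. The authors' deposited table holds 9 of 12243 genes (0.0735%) at an adjusted p under 0.05, and 0 members among them.

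The integrins and the laminins differed in the sign of their fold changes, while no single member was called. Of 14 integrins, 10 had a higher mean log2 value in knockout and 4 a lower one, and the median log2 fold change was 0.21. Of 8 laminins, 1 was higher and 7 lower, with a median of −0.24. When libraries were weighted by their spread, the laminin median turned to 0.44 and the integrin median rose to 0.51. Over all tested genes 48.98% were higher and the median was −0.01. Summed over the family, integrins gave 400, 255 and 359 FPKM in wildtype and 475, 402 and 416 FPKM in knockout libraries, and laminins gave 259, 107 and 368 FPKM against 208, 138 and 214 FPKM. The integrin sums did not overlap, by a narrow margin (400 against 402), while the laminin sums of the knockout libraries lay inside the wildtype range. Itgb1 alone gave 117 to 287 FPKM of the integrin sums. The FPKM total over all genes ran from 429622 in wildtype library 1 to 788996 in wildtype library 3. The sums were not rescaled to a common total, so their separation carries no weight. The split of signs rested on single libraries. Without wildtype library 3, 13 of 14 integrins and 5 of 8 laminins had the higher mean in knockout. Without wildtype library 2, 6 of 14 integrins did, and 7 of 8 laminins had the lower mean.

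**Figure D2:**
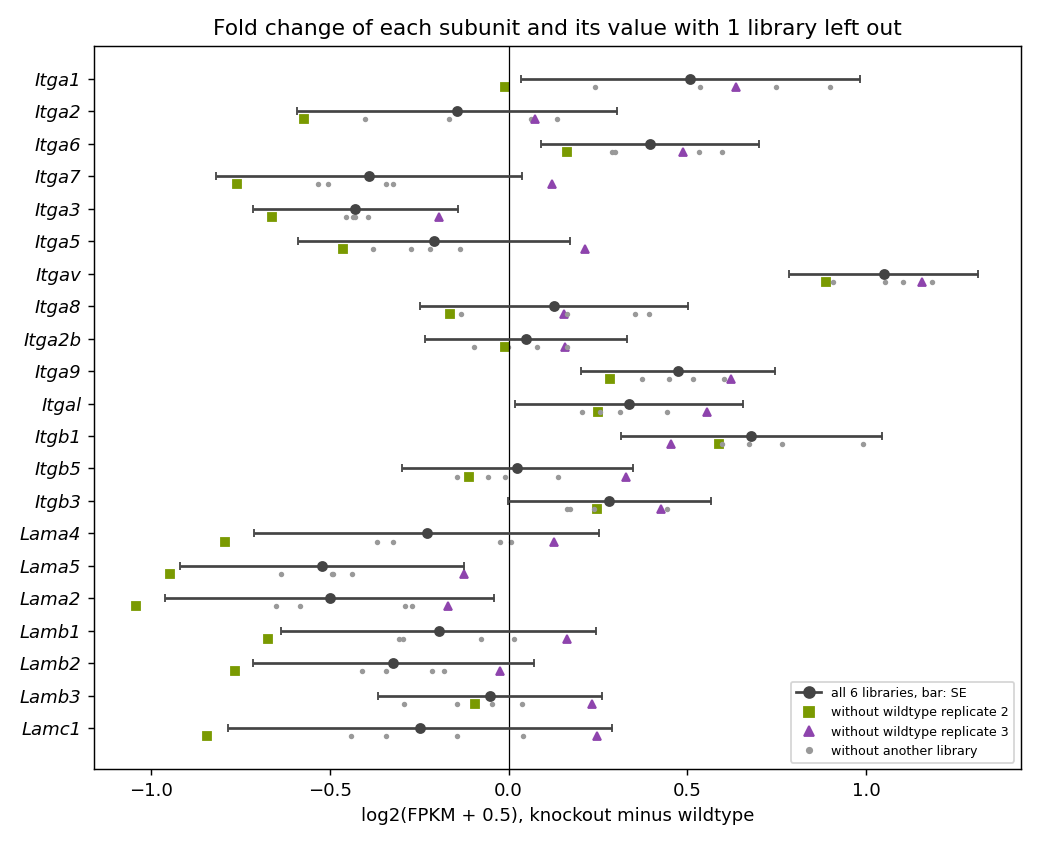
Log2 fold change, knockout minus wildtype, on the log2(FPKM + 0.5) scale for 21 of the 22 expressed members, with the limma standard error as bars and the values with 1 library left out as small marks. Itgav at 1.05 lies farthest from 0, while the 7 laminins drawn lie below 0 and the bars of Lamb1, Lamc1, Lama4, Lamb2 and Lamb3 cross it.

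Itgav encodes the alpha subunit that binds the RGD sequence in fibronectin and vitronectin and in latent TGF-beta, and it pairs with Itgb1, Itgb3, Itgb5, Itgb6 or Itgb8. It lies on chromosome 2 from 83724397 to 83806916, plus strand, in mm10 (ENSMUSG00000027087.11). The wildtype libraries measured 6.88, 4.98 and 7.45 FPKM and the knockout libraries 16.7, 11.2 and 13.6 FPKM, on 182 to 762 reads. Every knockout library lay above every wildtype library. The means were 6.44 ± 1.29 and 13.9 ± 2.75 FPKM (SD, n = 3 each), a ratio of 2.15. On the log2 scale the difference was 1.05 (SE 0.27), which limma gave an adjusted p of 0.966 over all genes. The adjusted p was 0.528 with the replicate number as a block, and 0.198 when the trends with GC content and length were removed as well, where the log2 fold change was 0.98 (SE 0.19). The knockout library lay above the wildtype library of the same number by 1.22, 1.10 and 0.83 on the log2 scale. The authors' deposited table gives Itgav a log2 fold change of 0.87 and an adjusted p of 0.260. After removal of the trends the wildtype libraries stood at 2.50, 2.66 and 3.28 and the knockout libraries at 3.80, 3.76 and 3.82 on the log2 scale, still without overlap.

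The beta subunits that pair with Itgav were measured beside it. Itgb1 (chromosome 8, 128685654 to 128733200, plus strand, ENSMUSG00000025809.15) gave 248, 141 and 117 FPKM in wildtype and 287, 259 and 228 FPKM in knockout libraries. Wildtype library 1 lay inside the knockout range and the other two below it, and the difference on the log2 scale was 0.68 (SE 0.36, limma adjusted p = 0.966). In wildtype library 3, where transcripts of low GC content were low, Itgb1 (44.8% GC) lay 0.95 below the mean of the other libraries on the log2 scale, and 0.43 below it once the trends were removed. Itgb5, a vitronectin receptor subunit, gave 30.5, 31.9 and 59.1 FPKM against 41.2, 33.5 and 44.0 FPKM, a log2 fold change of 0.02 (SE 0.32, limma adjusted p = 0.996). Wildtype libraries 1 and 2 lay below the knockout range and library 3 above it. Itgb3, the partner of Itgav on osteoclasts and of Itga2b on platelets, was low, with means of 1.88 and 2.41 FPKM. Itgb6 and Itgb8 were not tested, with Itgb8 at means of 0.459 and 0.723 FPKM.

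Among the beta subunits Itgb1 made up 88.0, 80.2 and 64.2% of the summed FPKM in wildtype libraries and 86.1, 87.1 and 82.1% in knockout libraries. The groups overlapped, and the difference of means of 7.65 percentage points gave p = 0.4 in an exact two-sided permutation test, where 3 against 3 cannot go below 0.1. Among the alpha subunits Itgav made up 5.83, 6.37 and 4.22% in wildtype and 11.8, 10.7 and 9.84% in knockout libraries. Itga3 made up 5.07, 5.38 and 4.80% against 3.18, 3.90 and 3.17%. Neither share overlapped between the groups, and the same held for 5 of the 18 alpha subunits in all, with Itga9 and Itgal higher and Itga7 lower in knockout. These were singled out after their values were seen and carry no test, and a share also depends on the levels of the other members. Shares within other gene families were not computed, so the count of 5 of 18 has no background to be set against and is a description only.

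Itga5, the partner of Itgb1 in the main fibronectin receptor, was the most abundant alpha subunit, with 31.2 to 51.7% of the alpha sum. It gave 39.8, 35.4 and 91.2 FPKM in wildtype and 44.2, 39.2 and 47.7 FPKM in knockout libraries. Wildtype library 3 held more than the other wildtype libraries together, and every knockout library lay inside the wildtype range. Its log2 difference was −0.21 (SE 0.38, limma adjusted p = 0.966), and 0.21 without wildtype library 3. Itga8, which binds nephronectin, and Itga2b of platelets, the remaining RGD-binding alpha subunits, had means under 3 FPKM and log2 fold changes of 0.13 and 0.05. Platelet and megakaryocyte markers summed to 12.0 to 40.6 FPKM in wildtype and 17.1 to 28.6 FPKM in knockout libraries, and their part in Itga2b was not tested.

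The laminin-binding alpha subunits went in different directions. Itga6, which pairs with Itgb1 or Itgb4, gave 20.3, 11.9 and 19.0 FPKM in wildtype and 25.3, 16.6 and 25.6 FPKM in knockout libraries. It was higher in knockout in all 3 pairs of the same number but overlapped as a group, with a log2 fold change of 0.40 (SE 0.31, limma adjusted p = 0.966). Itga7, the laminin receptor subunit typical of mature muscle, gave 6.52, 4.62 and 16.9 FPKM against 5.44, 5.60 and 7.15 FPKM. Its wildtype mean was set by library 3, and the log2 fold change of −0.39 (SE 0.43, limma adjusted p = 0.966) became 0.12 without that library. Itga3, which binds laminins that hold Lama5 or Lama3, gave 5.99, 4.20 and 8.46 FPKM against 4.50, 4.10 and 4.38 FPKM. It was the member lower in knockout in all 3 pairs, by a log2 fold change of −0.43 (SE 0.29, limma adjusted p = 0.966), and the groups overlapped at wildtype library 2.

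Of the collagen receptors, Itga1 gave 17.8, 4.67 and 12.2 FPKM in wildtype and 21.4, 10.3 and 14.1 FPKM in knockout libraries. Wildtype library 2 was the low one; the log2 fold change of 0.51 (SE 0.47, limma adjusted p = 0.966) became −0.01 without it. Itga2, the platelet and epithelial collagen receptor, had means of 1.39 and 1.16 FPKM. Itga9, which binds tenascin-C and osteopontin, gave 10.2, 7.26 and 11.9 FPKM against 14.0, 11.3 and 15.7 FPKM. Wildtype library 3 lay above knockout library 2 by a small margin, and its log2 difference was 0.47 (SE 0.27, limma adjusted p = 0.966). Itgal, the alpha subunit of a leukocyte integrin, had means of 0.807 and 1.12 FPKM.

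A higher value in knockout in all 3 pairs of the same number was found for 7 of the 22 tested members, against 16.6% of all genes. Of these, 6 were integrins: Itgb1, Itga6, Itga1, Itga9, Itgav and Itgb3. A lower value in all 3 pairs was found for 1 member, Itga3, and for 1678 of all 12121 tested genes. The labels do not say that libraries of the same number belong together. Members are not independent either, with a median correlation of 0.53 between tested members across libraries, so these counts are a description only.

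The laminin chains that form the trimers of muscle and vessels varied together from library to library, with the extremes inside the wildtype group. Lamb1 (chromosome 12, 31265234 to 31329644, plus strand) gave 69.1, 29.9 and 96.6 FPKM in wildtype and 59.5, 38.0 and 58.7 FPKM in knockout libraries. Lamc1 (chromosome 1, 153218922 to 153332786, minus strand), the gamma chain of most laminins, gave 62.4, 23.3 and 107.5 FPKM against 51.9, 30.3 and 59.5 FPKM. Lama4 (chromosome 10, 38965515 to 39110188, plus strand), an alpha chain of vessel and muscle laminins, gave 57.4, 19.4 and 70.9 FPKM against 44.5, 26.3 and 41.9 FPKM. In each of these 3 genes wildtype library 2 was the lowest of all 6 libraries and wildtype library 3 the highest, with all knockout libraries between them. The log2 fold changes were −0.20 (SE 0.44), −0.25 (SE 0.54) and −0.23 (SE 0.48), each with a limma adjusted p of 0.969. Without wildtype library 3 they became 0.16, 0.25 and 0.13, and without wildtype library 2 they became −0.67, −0.84 and −0.79.

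Lamb2, the beta chain of mature muscle and vessel laminins, gave 45.4, 19.9 and 56.5 FPKM in wildtype and 33.4, 25.4 and 30.5 FPKM in knockout libraries, a log2 fold change of −0.32 (SE 0.39, limma adjusted p = 0.966). Lama5, an alpha chain of vessel and epithelial laminins, gave 7.71, 3.88 and 13.2 FPKM against 4.77, 4.40 and 5.94 FPKM, a log2 fold change of −0.52 (SE 0.40, limma adjusted p = 0.966). Lama2, the alpha chain of the muscle basement membrane whose loss causes a muscular dystrophy, gave 9.69, 3.10 and 11.6 FPKM against 5.53, 3.41 and 6.11 FPKM, a log2 fold change of −0.50 (SE 0.46, limma adjusted p = 0.966). For these 3 chains too the knockout libraries lay inside the wildtype range, between library 2 and library 3. Without wildtype library 3 their log2 fold changes were −0.02, −0.12 and −0.17.

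Lamb3, a beta chain of epithelial laminins, had means of 4.45 and 4.09 FPKM, while Lama3, an alpha chain of the same laminins, stayed under the filter at 0.422 and 0.310 FPKM. In the GENCODE M21 annotation Lamb3 overlaps Hsd11b1 and G0s2, Itga1 overlaps Pelo, Itga7 overlaps Mettl7b, and Itgav overlaps the pseudogene Dnmt3l-ps1 and Gm13684. How reads of such overlaps were assigned was not tested.

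Wildtype library 3 was the highest library for 12 of the 22 tested members, 7 of 8 laminins and 5 of 14 integrins, where it was highest for 37.5% of all tested genes. Wildtype library 2 was the lowest for 15 of the 22, 7 laminins and 8 integrins, where it was lowest for 13.2% of all tested genes. Across the 22 members, the difference of wildtype library 3 from the mean of the other libraries went with transcript GC content (r = 0.61, rho = 0.60, across genes, as a description), and after removal of the trends r was −0.16. The other libraries also varied with GC among the members, with r of −0.33 in wildtype library 1, 0.56 in wildtype library 2, −0.71 in knockout library 1, −0.09 in knockout library 2 and −0.54 in knockout library 3. After removal of the trends r was still 0.63 in wildtype library 2 and −0.52 in knockout library 3. The 7 members with under 50% GC had a median log2 fold change of 0.40, 5 of them above 0, and the 15 with 50% or more had −0.20, 6 of them above 0. The class under 50% held 6 integrins and 1 laminin. Within the class of 50% or more, 5 of 8 integrins and 1 of 7 laminins had a higher mean in knockout, with medians of 0.04 and −0.23. With the trends removed from all libraries the medians were 0.28 for integrins and −0.20 for laminins. The excess of wildtype library 3 over the mean of the others went from 1.33 to 1.13 for Lamc1, from 0.995 to 1.05 for Lama4 and from 0.98 to 0.84 for Lamb1 on the log2 scale when the trends were removed. It went from 1.14 to 0.48 for Itga5, from 1.46 to 0.72 for Itga7, from 1.27 to 0.49 for Lama5 and from 0.91 to 0.20 for Lamb2. The excess thus stayed near its size in the first 3 genes and shrank in the last 4. These genes are examples and do not cover all 22 members. In others it grew, from 0.61 to 1.19 for Itga2, from −0.01 to 0.41 for Itga8 and from 0.004 to 0.46 for Itga1. For Itgb5 it went from 0.71 to −0.02.

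**Figure D3:**
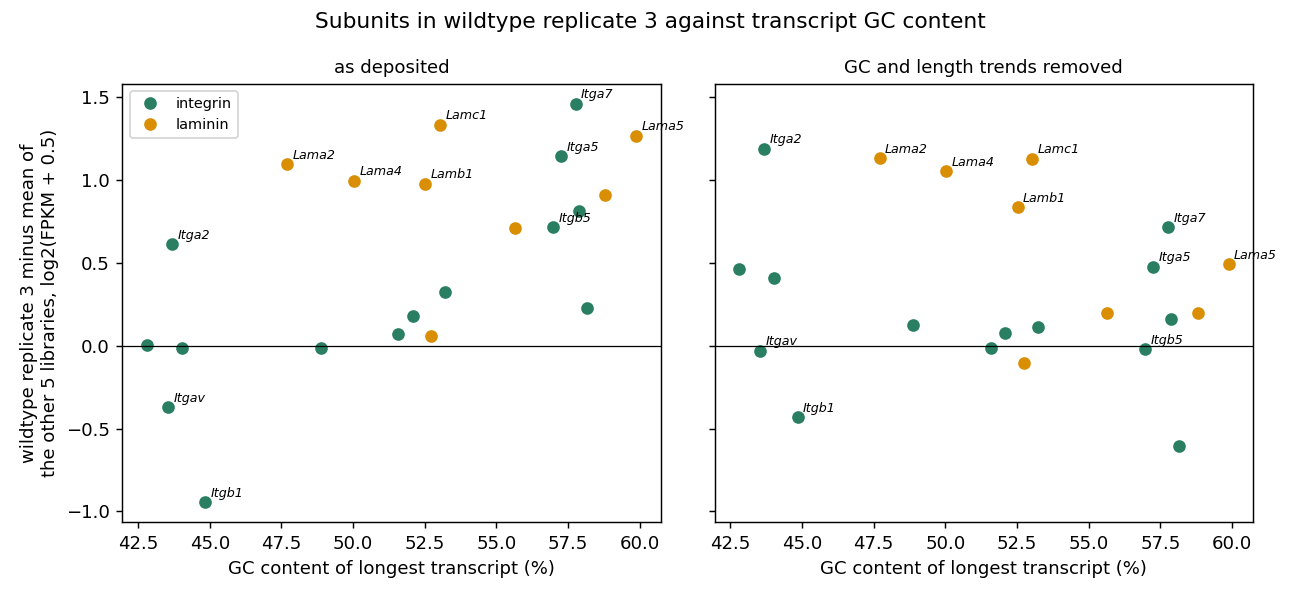
Wildtype library 3 minus the mean of the other libraries, on the log2(FPKM + 0.5) scale, against transcript GC content in percent, 1 point per tested member, as deposited and after the trends with GC and length were removed. The deposited values run upward with GC (r = 0.61), and the values without the trends do not (r = −0.16).

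Marker levels of other cell types also spread widely among the wildtype libraries. The 8 endothelial markers summed to 335 to 762 FPKM in wildtype, highest in library 3, and to 415 to 504 FPKM in knockout libraries. The 8 fibroblast markers summed to 491 to 1100 against 627 to 840 FPKM. By mean log2 value, 5 of 8 endothelial and 5 of 8 fibroblast markers were higher in knockout, with median log2 fold changes of 0.08 and 0.35. Heart muscle markers summed to 36114 to 52628 FPKM in wildtype and 31755 to 36741 FPKM in knockout libraries, 9 of 10 with the lower mean in knockout and a median log2 fold change of −0.39. The FPKM total over all genes was also highest in wildtype library 3, at 788996, where the other libraries had 429622 to 630522. Marker sums were not rescaled for this. In whole hearts fewer cells of a type, less RNA per cell and such differences between whole libraries cannot be told apart. The part of these marker shifts in the laminin and integrin values was not tested.

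Trimers were not measured, only the share of each chain in the transcripts of its class. The shares of Lama4, Lamb1 and Lamc1 varied less between libraries than their FPKM did. Each was the largest part of its own sum, which limits how far its share can move. Their steadier shares are therefore no measure of the make-up of trimers. Shares were not steadier for every chain: Lamb3 ran from 2.46 to 7.35% of the beta sum, and from 2.89 to 6.52 FPKM. Lama4 made up 76.1, 72.9 and 73.7% of the laminin alpha sum in wildtype and 80.6, 76.5 and 77.1% in knockout libraries, so every knockout library lay above every wildtype library. Lama2 lay the other way without overlap, at 11.6 to 12.9% against 9.93 to 11.3%. Shares of a class depend on one another, so the lower Lama2 share is not separate from the higher Lama4 share. As for the integrin alpha subunits, the count of 2 of 5 laminin alpha genes without overlap has no background and is a description only. The Lama4 means were 74.3% ± 1.69 and 78.1% ± 2.20 (SD, n = 3 each), a difference of 3.81 percentage points with p = 0.1 in an exact two-sided permutation test, the smallest p that 3 against 3 allows. Lamb1 made up 55.6 to 62.9% of the beta sum and Lamc1 86.1 to 95.7% of the gamma sum, with overlapping groups. Lama1 and Lama3 together stayed under 1% of the alpha sum in every library.

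**Figure D4:**
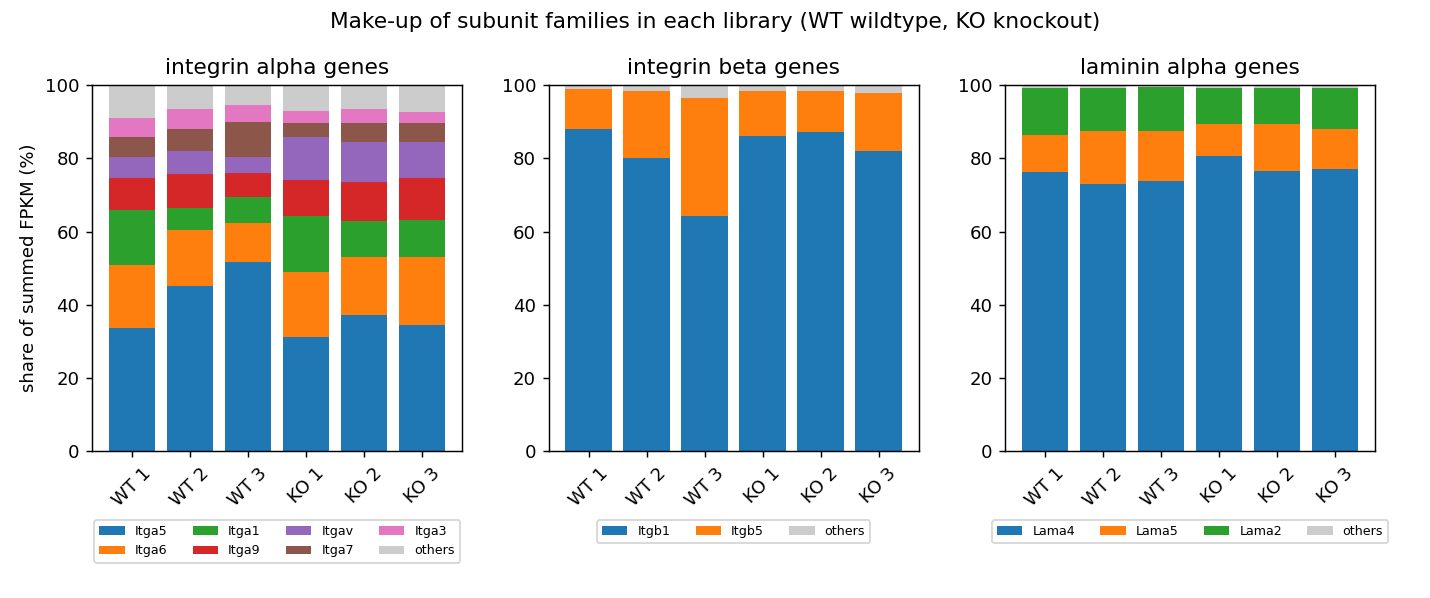
Share of the summed FPKM of its class, in percent, taken by the main integrin alpha, integrin beta and laminin alpha genes in each of the 6 libraries, with the rest in grey. Lama4 takes 72.9 to 80.6% of the laminin alpha chains, Itgb1 64.2 to 88.0% of the beta subunits, and the lowest Itgb1 share is that of wildtype library 3.

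The genes that act with integrins and laminins were described by 4 lists. Of 24 tested activators and adaptors, which link integrins to actin, 8 had a higher and 16 a lower mean in knockout, the median log2 fold change was −0.13, and 0 were at an unadjusted p under 0.05. The smallest p values there belonged to Itgb1bp1, an inhibitor of Itgb1 activation, at a log2 fold change of 0.68 (SE 0.36), and Tln2, a talin of muscle, at −0.40 (SE 0.24). Of 16 kinases and signalling genes 9 were higher and 7 lower, median 0.03, again with 0 at an unadjusted p under 0.05; Rap1b, a GTPase that recruits talin, stood at 0.65 (SE 0.40) and Git1 at −0.47 (SE 0.41). Of 9 laminin receptors other than integrins, the dystroglycan and sarcoglycan genes among them, 5 were higher and 4 lower, median 0.10, with 0 at that threshold. Sgcb and Sgcd stood at 0.31 (SE 0.27) and 0.33 (SE 0.35). Fermt1, the kindlin of epithelia, was listed at 0 throughout.

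The fourth list held other ligands of integrins and parts of the basement membrane. Of its 17 tested genes 13 had a higher and 4 a lower mean in knockout, and the median log2 fold change was 0.21. An unadjusted limma p under 0.05 was found for 3 of them, and for 3.25% of all genes. The list was chosen with earlier results of these data known, so an excess over that share cannot be read as a result. Ctgf, a matricellular protein bound by Itgav integrins, gave 78.6, 81.0 and 74.6 FPKM in wildtype and 148, 135 and 114 FPKM in knockout libraries, a log2 fold change of 0.75 (SE 0.27, limma adjusted p = 0.966). Cyr61, its close relative, gave 20.6, 25.8 and 27.2 FPKM against 39.2, 40.5 and 42.3 FPKM, a log2 fold change of 0.73 (SE 0.25, limma adjusted p = 0.966). The groups of neither gene overlapped, as for 5.02% of all genes in the higher direction, and neither was called. The third, Emilin2, a glycoprotein of the EMILIN family named because it completes the count, gave 22.1, 15.8 and 39.4 FPKM in wildtype and 13.6, 11.6 and 15.4 FPKM in knockout libraries, a log2 fold change of −0.81 (SE 0.35). Its groups did not overlap either, in the lower direction, as for 4.74% of all genes.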

How the data were processed

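Poly(A) RNA of 3 wildtype and 3 Gas2l3 -/- hearts was made into libraries with the NEBNext Ultra kit and 13 PCR cycles and sequenced on a NextSeq, per the labels' protocols and series design text. FastQC, DESeq2 and mm10 are listed in the submitters' processing notes; aligner, counter, annotation and use of strand, not given in the sources used here, are unknown. The authors deposited FPKM per gene and library, scaled between libraries, and a table of their comparison, per the file headers. Whole reads were recovered from the 2 tables for 94235 of 94235 values above 0 (tolerance 0.01); they give counting error only.

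Groups and replicate numbers come from the labels. The test was limma 3.58.1 in R 4.3.3 (lmFit, eBayes with an intensity trend, two-sided) on log2(FPKM + 0.5), for genes at 1 FPKM or above in 3 or more libraries. Benjamini-Hochberg adjustment ran over all 12121 genes, with calls at an adjusted p under 0.05. The pseudocount makes fold changes of low genes too small. The same-numbered libraries deviated together (correlations 0.472, 0.443 and 0.186, all above 0.1), so a replicate block was fitted as an alternative. GC content and length were those of GENCODE M21 transcripts, known for 11709 genes (96.6%) and all 22 tested members; trends were removed by loess with a span of 0.3. The limma step was tested on simulated data with independent noise and differences larger than any seen among the members. That check shows that the fit returns the right sign and size, and not what differences of the members' size it could call. Full values are given for the 8 integrins and 5 laminins of highest mean and for the 5 smallest p in each direction; of each pathway list, the 2 smallest p; 1 member this rule names is not reported here. Members and lists were chosen with earlier results of these data known.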

Additional observations from a re-analysis of the deposited data

How the results depend on the processing

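No member was called in any of the settings tried, and 8 of the 22 tested members kept their direction in each setting that gave them a value (16 to 18 settings), among these Itga3, Itga6, Itga9, Itgal, Itgav, Itgb1 and Itgb3. Itgav ranged from 0.89 to 1.27 on the log2 scale, with limma adjusted p from 0.154 to 0.9996. The replicate block called no gene and left Itgav at 1.05 (limma adjusted p = 0.528). Over all genes, 394 had an unadjusted p under 0.05, 729 with the block, 375 with voom on recovered reads and 1467 without wildtype library 1. Library weights, estimated gene by gene because the default estimate did not converge, called 1 gene higher and 1 lower, and removal of the GC and length trends without the block, a setting chosen after seeing the data, called 1 lower; none were members. Library weights turned the laminin median to 0.44 and raised the integrin median to 0.51. They reversed Lamc1 (0.75), Lamb3 (0.048), Lama2 (0.34), Lama4 (0.59), Itga7 (0.25), Lamb1 (0.54), Itga2 (0.44), Itga5 (0.24), Lama5 (0.15) and Lamb2 (0.26). The cause was not tested. Scaling to a common total moved the median of all genes to 0.15 and Lamb3 to 0.11. Removal of the trends, with or without the block, gave Lamb3 0.074 and Sgcd −0.080, and quantile normalization gave Itga2b −0.058.

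Leaving out each library in turn moved the integrin median from −0.01 to 0.40 and the laminin median from −0.78 to 0.15. Single genes ranged from −0.011 to 0.90 (Itga1), −0.57 to 0.14 (Itga2), −0.10 to 0.16 (Itga2b), −0.46 to 0.21 (Itga5), −0.76 to 0.12 (Itga7), −0.16 to 0.39 (Itga8), −0.14 to 0.33 (Itgb5), −0.79 to 0.13 (Lama4), −0.67 to 0.16 (Lamb1), −0.29 to 0.23 (Lamb3) and −0.84 to 0.25 (Lamc1). The lowest values mostly left out wildtype library 2 and the highest wildtype library 3. The 3 libraries a group, the spread within the wildtype group and the low depth of the smaller members limit what could be called.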
